A study of Mus musculus with 30 samples.

Results

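The Sox2 effect is the difference in RNA level between stomach cells sorted with and without a Sox2 reporter signal, and it was compared between the antrum, the distal gastrin-producing part of the mouse stomach, and the corpus, its acid-secreting body. The comparison used 12 of the 30 libraries of the series, all from Sox2-Tomato mice, in which a red fluorescent protein reports the Sox2 gene and whose genotype the labels otherwise give as WT. The 4 groups of 3 libraries were antrum Sox2-negative and antrum Sox2-low cells, and corpus Sox2-negative and corpus Sox2-positive cells. The antrum was also sorted into a Sox2-high fraction, which enters neither group here, whereas the corpus had 1 positive gate, which the library descriptions call Sox2 low. The antrum effect is therefore Sox2-low minus Sox2-negative, the corpus effect Sox2-positive minus Sox2-negative, and the gates are not matched by construction. Neither the age nor the number of mice behind a sort was stated. Antrum and corpus cells were sorted on different days, so tissue and sort day cannot be told apart for a level, whereas each effect was measured within its own days.

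Sox2 is a transcription factor of the foregut that is kept in the adult stomach, where Sox2-positive cells include dividing and progenitor cells. The glands of the corpus hold parietal cells, which secrete acid through the proton pump, chief cells, which secrete digestive enzymes, and enterochromaffin-like cells, which release histamine, while the antrum is rich in gastrin and somatostatin cells. Ghrelin cells, tuft cells, which sense luminal signals, and mucous cells occur in both parts.

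Whole reads were recovered for all 12 libraries, 22860075 to 33838883 per library, and rescaled together, and levels are given below as normalized counts. Of 25942 named genes, 15959 reached 10 normalized counts in 3 or more libraries and were tested with limma on log2(normalized count + 1). A gene is called where its p-value, adjusted over all tested genes by the Benjamini-Hochberg procedure, is under 0.05. Because cells of the same number within a tissue were sorted on the same day, a second fit held the sort day as a block, and it is called the paired fit here. The unpaired fit was chosen as the principal one, and the paired value stands beside a result wherever it changes the call. No label ties the sorts to different mice, and the p-values therefore cover variation among sorts, which may be technical. All effects and their standard errors (SE) are log2 differences, the SE coming from the fit whose p is given.

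The tissues were told apart by their own markers. Gast, which encodes gastrin, lay between 296900 and 6250000 normalized counts in the antrum libraries and between 8.79 and 69.0 in the corpus libraries, except for 5766 in corpus Sox2-positive library 2. Atp4a, the catalytic subunit of the proton pump, lay between 231800 and 432800 in corpus and between 1044 and 25160 in antrum, so the antrum libraries also held parietal cell transcripts. The summed level of 17 simple epithelium genes was 308000 to 511800 across all libraries. Markers of other cell types were present in the negative gates. The summed immune cell list was 2340 to 30190 in antrum Sox2-negative against 441 to 663 in Sox2-low libraries, and 3095 to 30210 in corpus Sox2-negative against 1344 to 1587 in Sox2-positive libraries. Genes of fibroblasts and muscle stayed under 326 in sum in every library.

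Sox2 itself followed the gate in the corpus, and in the antrum its groups overlapped. Corpus Sox2-negative libraries held 98.1, 76.2 and 38.3 normalized counts of Sox2 and the Sox2-positive libraries 500.3, 507.9 and 357.8, with no overlap (log2 difference 2.75, SE 0.77, adjusted p = 0.0681; paired fit adjusted p = 0.00536; two-sided exact permutation p = 0.1, the smallest that 3 against 3 allow). Antrum Sox2-negative libraries held 44.9, 606.4 and 410.0 and the Sox2-low libraries 471.5, 909.6 and 973.9. The library labelled Sox2-negative 2 thus held more Sox2 RNA than the library labelled Sox2-low 1, although within each sort day the Sox2-low library was higher. The antrum effect on Sox2 was 1.73 (SE 0.77, adjusted p = 0.415; paired fit SE 0.45 and adjusted p = 0.056; two-sided exact permutation p = 0.2), and it ran from 0.59 without antrum Sox2-negative library 1 to 2.45 without the library labelled Sox2-negative 2. Averaged over both tissues Sox2 rose by 2.24 (SE 0.54, adjusted p = 0.0315), a call kept in 5 of 12 refits that each left out 1 library. The effects on Sox2 were not shown to differ between tissues (difference -1.02, SE 1.09, adjusted p = 1.0; two-sided exact permutation p = 0.4 over day-wise effects), and the difference was -2.21 and -0.30 without those same libraries.

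The shared part of the Sox2 effect was mostly loss. Averaged over both tissues, 925 genes fell and 20 rose, which is 5.8% and 0.125% of the genes tested and 5.92% together. The paired fit called 1715 lower and 523 higher (10.7% and 3.28%, together 14%). By the rule for a shared gene (the average is called and both effects have the same sign and are at least 1 in size), 613 genes were counted as lower and 7 as higher, or 3.84% and 0.0439%. Of the 925 genes with a lower average, 898 had both effects below 0. This count follows in part from the call, as the average is made of the same 2 effects. Over all tested genes, 61.3% had both effects of the same sign. The shared counts differ with the libraries used. Without the antrum Sox2-negative library 2 there were 795 shared genes, without the corpus Sox2-negative library 2 there were 410, and without both corpus libraries of sort day 3 there were 366. In the paired fit, 307 genes were called in the same direction in both tissues, 299 lower and 8 higher, which is 33.3% of the antrum calls and 19.4% of the corpus calls.

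**Figure D1:**
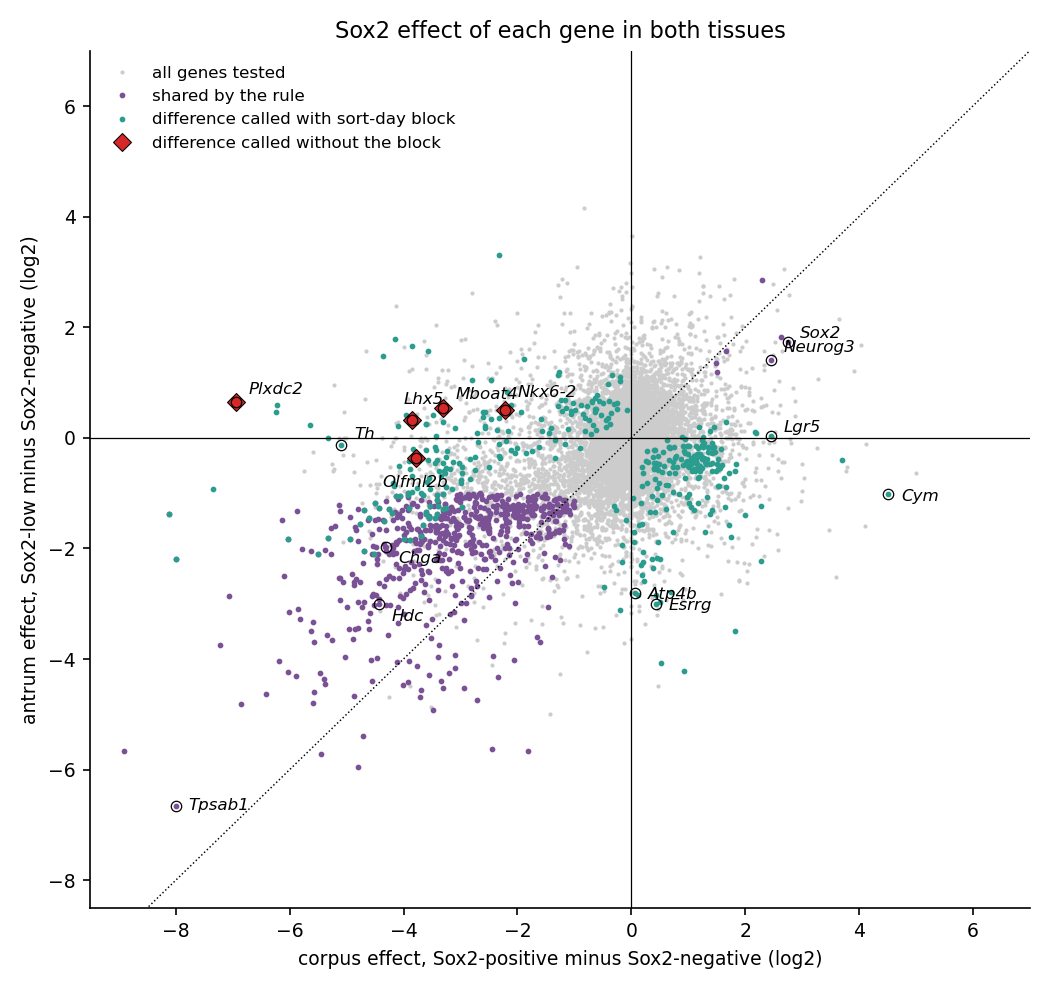
Sox2 effect of each of 15959 genes in the corpus (x axis) and in the antrum (y axis), both as log2 differences, with the diagonal of equal effects dotted. The 613 genes shared by the rule and lower fill the lower left, the 5 genes whose difference was called without the block lie far left of the vertical axis near an antrum effect of 0, and genes called with the block also lie at lower right, where the corpus effect is above the antrum effect.

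Each tissue on its own gave different numbers of calls. In the corpus, 751 genes fell and 39 rose (4.71% and 0.244%, together 4.95%), and the paired fit called 1281 and 302 (8.03% and 1.89%, together 9.92%). In the antrum, limma called 0 genes without the block (0%), while 1852 genes had an unadjusted p under 0.05, edgeR's quasi-likelihood test also called 0, voom with quality weights 142 and DESeq2 610. The paired fit called 668 antrum genes lower and 254 higher (4.19% and 1.59%, together 5.78%). Leaving out the antrum Sox2-negative library 2 gave 303 lower and 43 higher antrum calls without the block. A call in 1 tissue only is no difference between tissues, which is tested separately below. Of the 751 genes that fell in the corpus, 679 had an antrum effect below 0, with a median of -1.22 against a corpus median of -3.19, whereas over all tested genes the medians were 0.03 in antrum and -0.01 in corpus. Over all tested genes, 47.1% had an antrum effect below 0.

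Among the 10 genes named for the largest fall in the average were Tpsab1 and Tpsb2 of mast cells, the cytokine receptors Il10ra and Csf2rb of blood cells, and Csf1r of macrophages. In these bulk libraries, fewer cells of a type and less RNA per cell cannot be told apart. Tpsab1, a mast cell tryptase, had 431.7, 44.3 and 196.6 normalized counts in antrum Sox2-negative libraries and 0, 2.78 and 0 in Sox2-low libraries, against 1473, 161.1 and 69.0 in corpus Sox2-negative and no read in the 3 Sox2-positive libraries. Reads of Tpsab1 and the related tryptase Tpsb2 may be split between these copies by counting, so their single values are uncertain. Lyz2, a lysozyme of macrophages, had 3368, 337.6 and 380.8 against 23.1, 17.6 and 12.3 in antrum, and 193.0, 2794 and 246.5 against 4.43, 60.8 and 21.5 in corpus (average -5.05, SE 0.82, adjusted p = 0.00323). The groups did not overlap in either tissue. Csf1r, a receptor of the macrophage growth factor, fell by 5.12 on average (SE 1.03, adjusted p = 0.0112). Of 13 tested immune genes, 10 fell in the average and 0 rose (median -3.97, against 0.02 over all genes), among them Cd74, H2-Aa and H2-Ab1 of antigen presentation, for which related copies can share reads. Ptprc, the common leukocyte antigen CD45, did not follow: it had 191.6, 282.7 and 294.0 against 41.3, 113.1 and 283.4 in antrum and 580.1, 355.5 and 305.3 against 1156, 676.7 and 921.7 in corpus, a difference called by the paired fit (-2.35, SE 0.49, adjusted p = 0.0484) and not without the block (adjusted p = 0.408).

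Genes of hormone storage and release fell in the average of both tissues. Of 18 genes for granins and prohormone processing, 15 fell in the average and 0 rose, with a median effect of -1.83 in antrum and -2.35 in corpus. Chga, a core protein of secretory granules, had 61980, 28460 and 26950 normalized counts in antrum Sox2-negative and 5891, 14290 and 9465 in Sox2-low libraries, and 501500, 1211000 and 809300 in corpus Sox2-negative and 31620, 48430 and 41100 in Sox2-positive libraries. Its groups did not overlap in either tissue, and the average effect was -3.14 (SE 0.29, adjusted p = 0.00042). The granule genes Scg5 (average -2.80), Resp18 (-3.07) and Ptprn (-2.70) and the amidating enzyme gene Pam (-2.38) also fell. In the antrum alone, 16 of the 18 were called lower by the paired fit and 0 without the block. That antrum count rested on the sort days: it was 17 without antrum day 2, 10 without corpus day 1, 1 without antrum day 1, and 0 without antrum day 3, corpus day 2 or corpus day 3. The cause of these changes was not tested. The average count in the paired fit stayed between 14 and 17 in the same refits. Immune markers moved with the same gate. So did the glia and neuron list, some of whose genes endocrine cells also express: 4 of 10 tested members fell in the average and 0 rose (6 and 0 in the paired fit, median -1.51), namely Ncam1, Elavl4, Ret and Snap25. Its summed level was 3350 to 7546 in corpus Sox2-negative against 919.7 to 1157 in Sox2-positive libraries, and 2754 to 5327 against 1490 to 2619 in antrum. The part of either list in the endocrine result was not tested.

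Genes of histamine synthesis and storage were part of the shared loss. Hdc, which makes histamine, had 3507, 2102 and 603.1 against 184.7, 566.6 and 79.5 in antrum, and 38590, 100300 and 67560 against 1914, 4365 and 3156 in corpus (average -3.72, SE 0.52, adjusted p = 0.00148). Slc18a2, a vesicular amine transporter, fell by 3.22 (SE 0.56, adjusted p = 0.00521), and Ddc, an amine-forming decarboxylase, by 2.18 (SE 0.27, adjusted p = 0.000985). Cckbr, the gastrin receptor, had 470.5, 127.0 and 62.9 against 31.6, 39.0 and 29.5 in antrum and 3374, 8517 and 4917 against 410.8, 642.7 and 496.2 in corpus, with an average of -2.78 (SE 0.41, adjusted p = 0.00207). In all, 7 of 11 amine genes fell in the average and 0 rose. Mast cells also express Hdc and Slc18a2, and the mast cell protease genes Tpsab1 (-7.33), Tpsb2 (-7.28), Mcpt1 (-5.10) and Cma1 (-4.96) had lower averages in the same gates, with near copies that can share reads; their part in the histamine result was not tested. Among 17 tested peptide hormones, 3 fell without the block, including the proglucagon gene Gcg with 18220, 6319 and 1814 against 182.3, 465.5 and 187.6 in antrum and 2678, 4219 and 2221 against 265.6, 232.1 and 186.6 in corpus (average -4.12, SE 0.47, adjusted p = 0.000796). The paired fit called 7 hormones lower in the average and 0 higher, with Cck and Pyy among the 7. The list was mixed: of the 17, 6 had an average above 0 and 8 a corpus effect above 0. In corpus alone, the paired fit called 2 hormones higher and 3 lower.

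Few genes rose in the average, and the 7 counted as shared and higher were Sox2, Firre, Chst4, Fign, Neurog3, Try10 and Gm16348. Firre, a long noncoding RNA, had 69.1, 86.9 and 109.8 against 239.4, 283.7 and 260.5 in antrum and 127.0, 185.5 and 112.4 against 308.1, 843.2 and 332.2 in corpus, with effects of nearly the same size (1.57 and 1.67; average 1.62, SE 0.27, adjusted p = 0.00378). Chst4, a sulfotransferase that modifies mucin-type glycans, rose by 1.35 (SE 0.30, adjusted p = 0.0182). Dll3, a Notch pathway member, rose in the average by 1.28 (SE 0.26, adjusted p = 0.0105), with effects of 0.52 in antrum and 2.04 in corpus, so that it is not shared by the rule. A rise in both tissues was not measurable for 3 of the 7. Neurog3, which starts endocrine differentiation, had 98.2, 300.7 and 323.2 normalized counts in antrum Sox2-negative and 664.6, 460.8 and 579.1 in Sox2-low libraries, without overlap and without a call in antrum (adjusted p = 0.422). In corpus it had no read in the 3 Sox2-negative libraries and 1.77, 13.4 and 3.08 in the Sox2-positive libraries, a level too low for a size, and its corpus call held in 2 of 12 refits without 1 library. Try10, a trypsinogen-like gene whose reads can be split with near-identical copies, had at most 5.56 in antrum, and Gm16348 a mean of at most 8.36 there, both under the minimum of 10. Other endocrine transcription factors mostly had effects below 0: of 28 tested, 9 fell and 1, Neurog3, rose in the average (12 and 1 in the paired fit), with a median of -0.63. Insm1, Fev and Rfx6, factors of endocrine cells, were among the 9.

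The direct test of the difference, the antrum effect minus the corpus effect, called 5 genes higher and 0 lower (0.0313% and 0%), while 1131 genes had an unadjusted p under 0.05. Without the library labelled antrum Sox2-negative 2 it called 7 higher and 1 lower, and without corpus Sox2-negative library 3 it called 0. All 5 fell in the corpus and none was called in the antrum. Mboat4, the ghrelin O-acyltransferase that activates ghrelin, had 474.1, 405.6 and 495.0 normalized counts in antrum Sox2-negative and 761.9, 737.2 and 525.9 in Sox2-low libraries. In corpus it had 1584, 3672 and 2260 in Sox2-negative and 230.2, 269.7 and 214.3 in Sox2-positive libraries. Thus every Sox2-low library lay above every Sox2-negative library in antrum, and every Sox2-positive library below in corpus. The antrum effect was 0.54 (SE 0.28, adjusted p = 0.503), the corpus effect -3.31 (SE 0.28, adjusted p = 0.000277), and the difference 3.85 (SE 0.40, adjusted p = 0.0104). The two-sided exact permutation p was 0.1 in each tissue and for the day-wise difference, the smallest possible. The difference on Mboat4 lay between 3.5 and 4.14 in 24 alternative settings and stayed called in 20 of them, the exceptions being those without corpus Sox2-negative library 3, without corpus Sox2-positive library 1 or 3, and without corpus sort day 3, the last with an adjusted p of 0.329.

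Transcription factor genes were among the other difference calls. Lhx5, a LIM homeobox gene, had 57.0, 92.6 and 62.9 against 120.3, 87.2 and 61.4 in antrum and 1635, 4251 and 2266 against 116.0, 263.6 and 168.1 in corpus (difference 4.17, SE 0.59, adjusted p = 0.0441). The antrum groups overlapped and the corpus groups did not. Nkx6-2, a homeobox gene of the endocrine factor list, had 2578, 2818 and 2204 against 4682, 3101 and 3145 in antrum and 2631, 4005 and 2882 against 814.6, 656.1 and 566.0 in corpus (difference 2.72, SE 0.33, adjusted p = 0.0265). Its levels in the Sox2-negative libraries were thus close in both tissues, and the Sox2-expressing libraries separated in opposite directions, though the antrum effect of 0.50 was not called (adjusted p = 0.443). Olfml2b, which encodes an extracellular olfactomedin-like protein, had 47.3, 41.8 and 34.5 against 23.1, 45.4 and 30.3 in antrum and 1035, 1605 and 1362 against 88.6, 82.6 and 113.8 in corpus (difference 3.43, SE 0.46, adjusted p = 0.0301). Plxdc2, a membrane protein gene, had 118.7, 195.3 and 150.7 in corpus Sox2-negative libraries and 0.886, 0 and 0 in Sox2-positive libraries, but no read in 5 of 6 antrum libraries and 2.78 in the other. Its antrum effect is therefore not measurable, and its difference (adjusted p = 0.0301) is the corpus change of a gene that was near absent in antrum. The calls for Lhx5, Olfml2b, Nkx6-2 and Plxdc2 rested on the full set of libraries: they held in 8, 14, 15 and 9 of their 24, 24, 24 and 20 alternative settings, with the size of the difference at least 2.47 throughout.

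**Figure D2:**
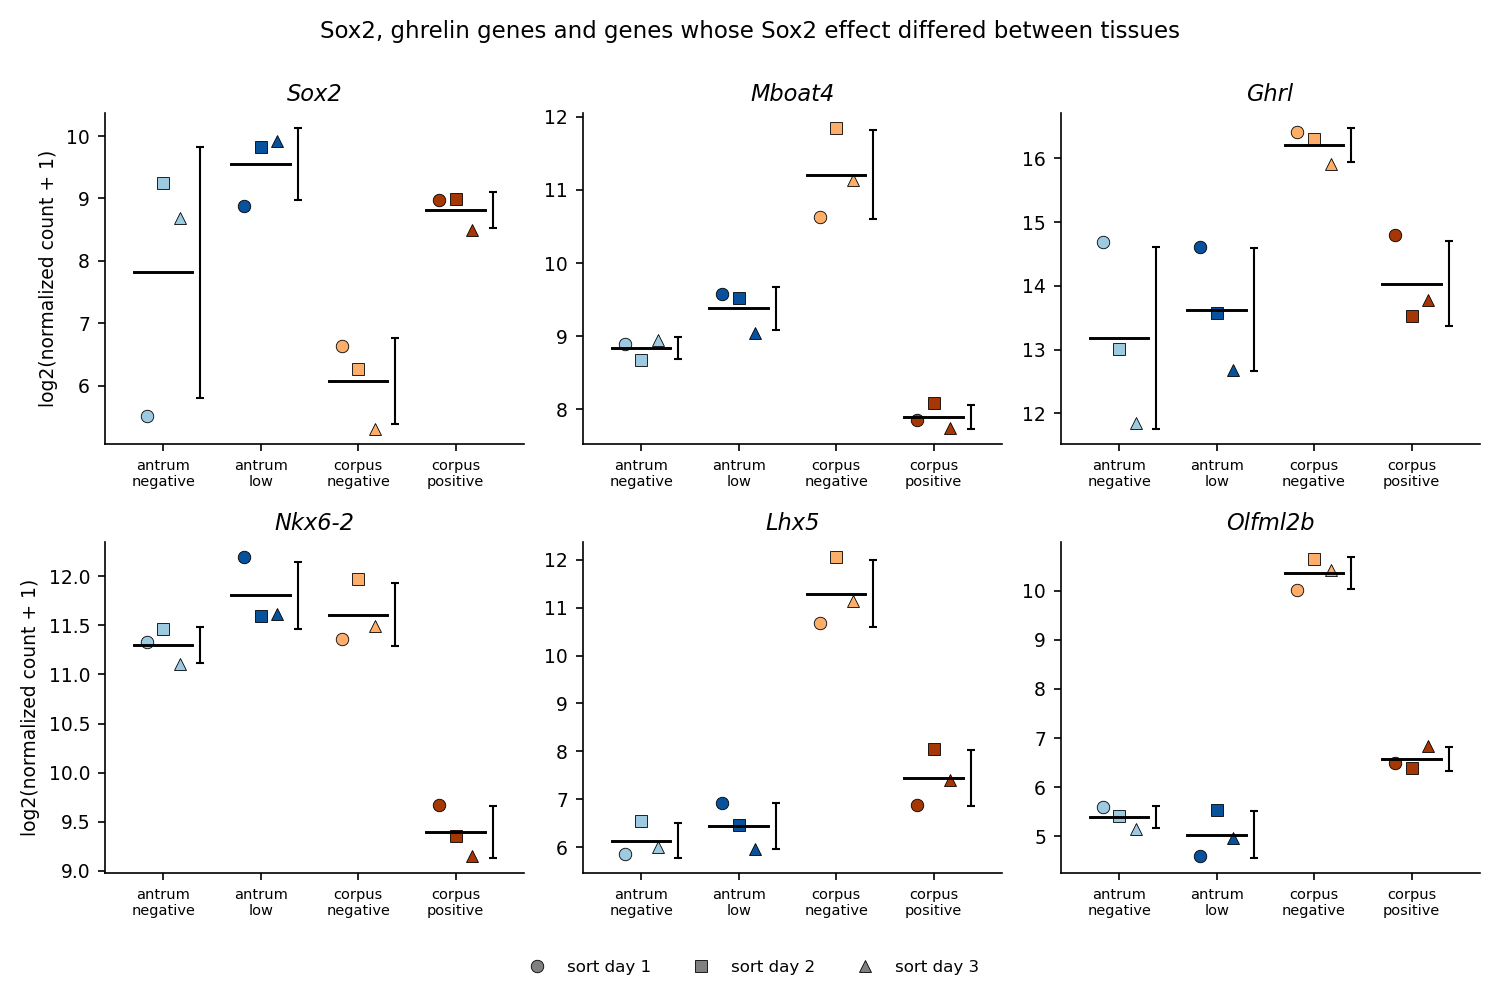
Levels of 6 genes in each library as log2(normalized count + 1), with 1 point per library, shaped by sort day, a bar at the mean of 3 libraries and an error bar of 1 SD. Mboat4 and Nkx6-2 lie lower in the corpus Sox2-positive libraries than in the other 3 groups, Lhx5 and Olfml2b are highest in the corpus Sox2-negative libraries, and the antrum groups overlap for Sox2.

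The stretches before the start of 2 of these genes are shown because, of the 5, only Nkx6-2 and Olfml2b had an entry in the promoter table; they are from RefSeq (GRCm38.p6, the 250 bases before the start, 5′ to 3′ on the gene's strand), with capitals for the 5 letters ACAAT, the core letters that Sox factors prefer, or their reverse complement ATTGT.
Nkx6-2 (chr7:139582798-139583047, minus strand): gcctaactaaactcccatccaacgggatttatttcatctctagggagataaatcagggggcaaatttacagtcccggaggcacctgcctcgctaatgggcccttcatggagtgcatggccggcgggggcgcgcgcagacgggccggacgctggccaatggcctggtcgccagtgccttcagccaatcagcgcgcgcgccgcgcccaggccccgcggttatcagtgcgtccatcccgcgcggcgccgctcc
Olfml2b (chr1:170644282-170644531, plus strand): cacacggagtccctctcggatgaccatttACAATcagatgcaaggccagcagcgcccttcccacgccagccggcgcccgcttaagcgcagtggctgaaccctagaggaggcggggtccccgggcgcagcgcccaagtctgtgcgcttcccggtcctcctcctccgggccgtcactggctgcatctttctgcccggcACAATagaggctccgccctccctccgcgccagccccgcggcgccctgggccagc
The Olfml2b window held ACAAT at 2 places, 221 and 54 bases before the start, and the Nkx6-2 window none. Over all 32851 windows of this length, 27.7% held ACAAT or ATTGT. The 6 letters ACAATG or CATTGT were in neither window and in 10.7% of all windows. A match is only a run of letters, and its absence covers only this window. GC content was 65.2% for Nkx6-2 and 69.6% for Olfml2b, against a median of 52.4% over all windows.

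In the paired fit, 372 genes differed between tissues, 188 with the antrum effect above the corpus effect and 184 below (1.18% and 1.15%, together 2.33%). Of the 188, 173 fell in the corpus, while 26 fell and 18 rose in the antrum, and 100 had both effects below 0. Of the 184, 123 rose in the corpus and 78 fell in the antrum. These counts depend on the sort days: without 1 day they ran from 96 genes (corpus day 3 left out) to 992 (antrum day 2 left out). DESeq2 without a block called 141 above and 85 below, and edgeR's quasi-likelihood test without a block 3 above and 0 below.

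The ghrelin gene had the same order of groups in corpus as Mboat4. Ghrl, the ghrelin gene, had 26520, 8258 and 3671 in antrum Sox2-negative and 25070, 12210 and 6598 in Sox2-low libraries, and 87240, 80750 and 61640 against 28520, 11860 and 14030 in corpus. The antrum groups overlapped and the sort days differed more than the gates did, whereas the corpus groups did not overlap. The difference of 2.61 was called in the paired fit (SE 0.31, adjusted p = 0.00532) and not without the block (SE 0.91, adjusted p = 0.456). Other genes of ghrelin cells fell in the average: Rbp4, a retinol carrier, by 1.48 on average (adjusted p = 0.0102), and Ttr, a carrier of thyroid hormone and retinol, by 1.55. All 6 ghrelin cell genes fell in the average by the paired fit, 4 of them also without the block. For 2 of the 6, Mboat4 and Ghrl, the antrum effect was above 0 (0.54 and 0.44). Their lower averages came from the corpus effects (-3.31 and -2.17).

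In the paired fit, 3 of 11 amine genes (Th, Maob and Maoa) and 2 of 18 granin genes (Chgb and Vgf) were called for a difference, all with the corpus effect lower, and 0 of either list without the block. Over all tested genes, the paired fit called 1.18% in this direction. The antrum effects on Th and Maob were near 0 or above it (-0.13 and 0.38) and not called. Th, tyrosine hydroxylase, had 820.9, 369.6 and 891.8 against 634.3, 649.1 and 500.5 in antrum and 169.3, 440.4 and 375.6 against 1.77, 15.8 and 14.4 in corpus. The difference was 4.96 in the paired fit (SE 0.52, adjusted p = 0.00345; without the block adjusted p = 0.13). Maob, a monoamine-degrading enzyme, had 971.3, 1908 and 2529 against 1610, 2103 and 3022 in antrum and 765.9, 1880 and 1331 against 146.1, 233.3 and 249.1 in corpus (paired difference 2.98, SE 0.23, adjusted p = 0.00151; without the block adjusted p = 0.144). For both genes the antrum groups overlapped and the corpus groups did not. Chgb, a granin, fell in both tissues in the paired fit, by 1.36 in antrum and by 4.2 in corpus, and the difference of 2.84 was called (SE 0.39, adjusted p = 0.00912; without the block adjusted p = 0.137). The same held for the granin-like Vgf (difference 3.51, adjusted p = 0.00993 paired and 0.129 unpaired) and for Snap25, part of the vesicle fusion machinery (2.08, adjusted p = 0.0342 paired and 0.432 unpaired). Insm1, a zinc finger factor of endocrine cells, had 1910, 1734 and 4037 against 1013, 1919 and 2288 in antrum and 1305, 2417 and 2318 against 162.9, 438.6 and 207.1 in corpus (paired difference 2.45, SE 0.33, adjusted p = 0.00837; unpaired 0.239). Chga and Hdc, by contrast, were not called for a difference by either fit (paired adjusted p = 0.0911 and 0.191).

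Most tuft cell genes rose in the corpus in the paired fit and had a lower effect in the antrum. Trpm5, the cation channel of tuft cells, had 6370, 4106 and 5296 in corpus Sox2-negative and 18670, 10350 and 13750 in Sox2-positive libraries, with no overlap. In antrum it had 2828, 6375 and 8979 in Sox2-negative and 2146, 3984 and 7223 in Sox2-low libraries, which overlapped, although the Sox2-low library was lower on each of the 3 days. The paired fit gave a corpus effect of 1.42 (SE 0.09, adjusted p = 0.000137), an antrum effect of -0.46 (SE 0.09, adjusted p = 0.0376) and a difference of -1.88 (adjusted p = 0.00151), and none of these was called without the block (adjusted p = 0.142, 0.768 and 0.464). Pou2f3, the factor that tuft cells require, followed with effects of 1.28 in corpus (paired adjusted p = 0.000403) and -0.36 in antrum (0.0823), and the kinase Dclk1 with 1.38 and -0.48. Of 28 tuft genes, 25 rose in corpus in the paired fit (median 1.23, against -0.01 over all genes), 3 fell in antrum (median -0.37), and 22 differed between the tissues, all with the corpus effect higher. Without the block, Spib and Hpgds alone were called, both higher in corpus. The count of 22 was 15 to 24 without 1 sort day, the lowest without corpus day 3. The summed level of the list was 48820 to 75190 in corpus Sox2-negative and 95120 to 186600 in Sox2-positive libraries, and 52970 to 109300 and 47060 to 94070 in the antrum groups. Ptprc, of the immune list, also had a corpus effect above its antrum effect (1.17 and -1.18), and its part in the tuft result was not tested.

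In the paired fit, 9 of 18 parietal cell genes fell in the antrum and few were called in the corpus. Atp4a had 12420, 25160 and 7992 in antrum Sox2-negative and 2107, 6547 and 1044 in Sox2-low libraries, against 432800, 247500 and 231800 and 416800, 319500 and 272500 in corpus. The antrum groups did not overlap and the corpus groups did. In the paired fit the antrum effect was -2.48 (SE 0.17, adjusted p = 0.00138), the corpus effect 0.18 (adjusted p = 0.652) and the difference -2.66 (SE 0.24, adjusted p = 0.00248), while none was called without the block (difference adjusted p = 0.354). Esrrg, a nuclear receptor needed for parietal cell function, had 743.3, 1021 and 422.4 against 82.6, 231.8 and 31.1 in antrum and 9788, 7933 and 10080 against 11930, 11520 and 13850 in corpus (paired difference -3.43, SE 0.34, adjusted p = 0.00308; unpaired 0.169). Of 18 parietal genes, 9 fell in antrum in the paired fit and 0 rose, 1 rose in corpus, and 8 differed between tissues: Atp4a, Atp4b, Esrrg, Kcnj16, Aqp4, Kcne2, Ckb and the histamine receptor gene Hrh2. The antrum count was 5 to 9 and the difference count 5 to 9 without 1 sort day. The antrum effect was above 0 for 6 of the 18 genes. The summed level of the list overlapped between the antrum gates, at 95060 to 177500 in Sox2-negative and 108200 to 139600 in Sox2-low libraries.

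**Figure D3:**
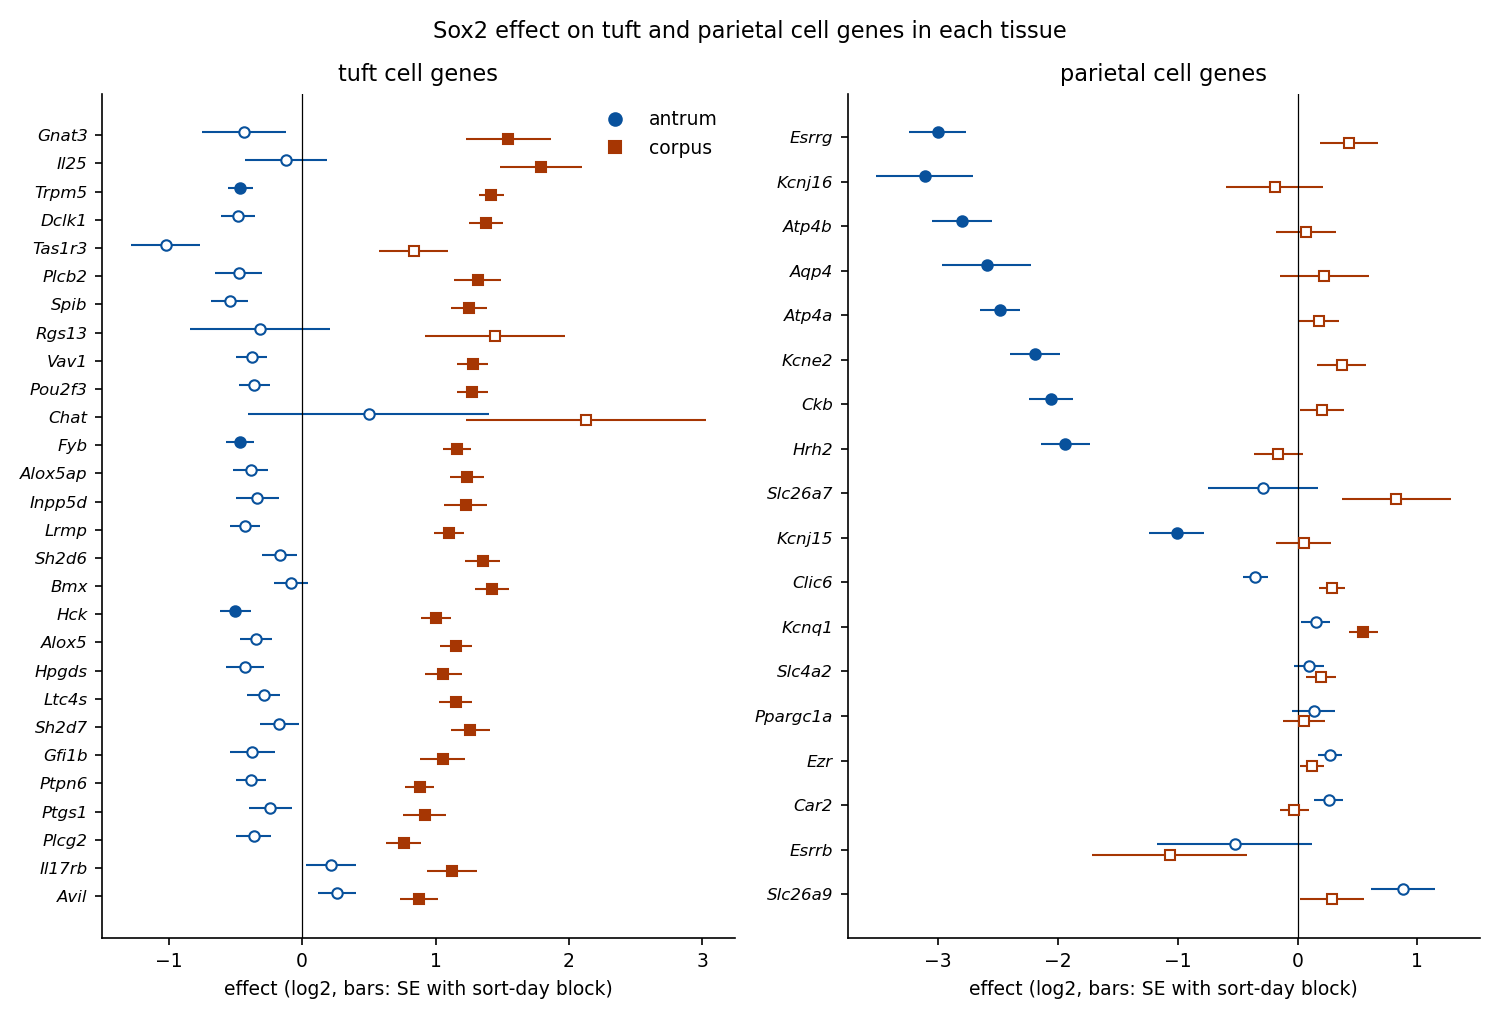
Sox2 effect of 28 tuft cell genes (left) and 18 parietal cell genes (right) in antrum (circles) and corpus (squares), in log2 units with 1 SE of the paired fit; filled symbols were called by that fit. The 25 tuft genes with filled squares lie to the right of 0, and the 9 parietal genes with filled circles lie to the left of 0 while their corpus values lie near it.

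Several chief cell and stem cell genes rose in the corpus. Gif, gastric intrinsic factor, had 1816, 8667 and 4476 against 7046, 54450 and 16590 in corpus and 6063, 9950 and 2154 against 5889, 9705 and 2872 in antrum. The corpus groups overlapped, as sort day 2 was high in both gates, but on each day the Sox2-positive library was higher (paired effect 2.17, SE 0.16, adjusted p = 0.000173; unpaired 0.212). The difference of -2.05 was called by the paired fit (adjusted p = 0.00383). Clps, colipase, and the lipase gene Pnliprp2 differed in the same direction (-2.10 and -1.38). Cym, the milk-clotting protease chymosin, had 91.9, 21.5 and 2.56 against 720.8, 532.2 and 229.7 in corpus (effect 4.52, SE 1.12, adjusted p = 0.0382, kept in 5 of 12 refits without 1 library) and at most 7.38 in antrum. Of 11 tested chief cell genes, 6 rose in corpus in the paired fit, 2 to 6 without 1 sort day. Pnliprp1 went the other way: it fell in the average by 3.66 (SE 0.55, adjusted p = 0.00236). Corpus Sox2-positive library 2 had 31.5% of its reads in 10 genes and antrum Sox2-negative library 1 had 27.6%, against 7.39 to 20.3% in the other libraries compared.

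Lgr5, the receptor that marks gastric stem cells and some chief cells, had 86.7, 128.9 and 118.8 against 635.8, 500.6 and 701.3 in corpus, with no overlap (effect 2.45, SE 0.44, adjusted p = 0.00617). In antrum it had 274.0, 945.6 and 379.9 against 288.0, 698.2 and 520.9, with an effect of 0.03 (SE 0.44, adjusted p = 0.989). The Wnt target Nkd1 had 120.8, 120.1 and 89.4 against 621.6, 373.0 and 537.3 in corpus (effect 2.18, SE 0.29, adjusted p = 0.00128) and 215.8, 371.2 and 283.4 against 286.8, 378.3 and 254.7 in antrum. The difference was called by the paired fit for both, at -2.42 for Lgr5 (SE 0.33, adjusted p = 0.00837) and -2.09 for Nkd1 (SE 0.32, adjusted p = 0.0152), and not without the block (adjusted p = 0.222 and 0.144). Of 21 genes of the Lgr5 and Wnt target list, 2 rose in corpus without the block and 6 with it, Ascl2 (1.12), Tnfrsf19, Sox9 and Sp5 being the 4 added by the block, with 2 to 9 called without 1 sort day. Pitx1, a homeobox gene of the hindlimb and foregut, also rose in corpus (1.45, SE 0.26, adjusted p = 0.00616; paired difference -1.25, adjusted p = 0.0227). Hopx, a homeodomain protein gene proposed as a stem cell marker, moved in opposite directions in the paired fit. It had 1729, 501.5 and 897.1 against 456.9, 291.2 and 385.8 in antrum (-1.31, adjusted p = 0.0335) and 144.5, 88.9 and 129.0 against 310.8, 192.0 and 280.9 in corpus (1.11, adjusted p = 0.0135), with a difference of -2.41 (adjusted p = 0.00714; unpaired 0.195). Neither tissue's groups overlapped. In all, 34 of the 15959 tested genes were called in opposite directions in the 2 tissues by the paired fit.

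**Figure D4:**
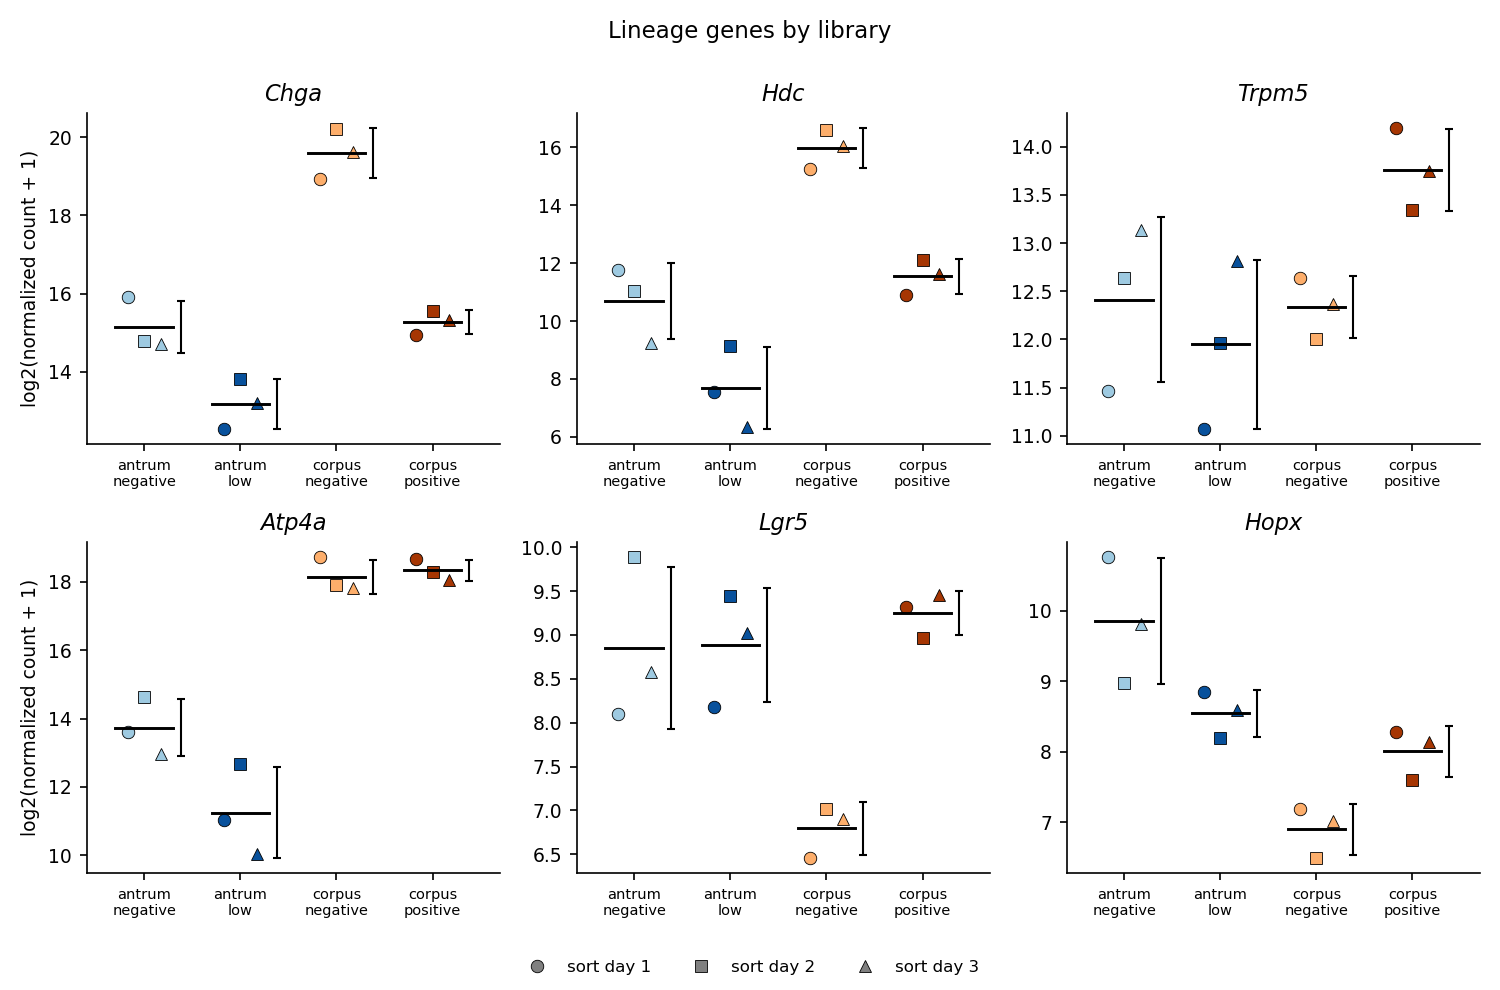
Levels of 6 lineage genes in each library as log2(normalized count + 1), 1 point per library shaped by sort day, with a bar at the mean and an error bar of 1 SD (3 libraries). Chga and Hdc are lower in the Sox2-expressing gate of both tissues, Trpm5 and Lgr5 are higher in it in corpus and overlap in antrum, Atp4a is lower in it in antrum and overlaps in corpus, and Hopx is lower in antrum and higher in corpus.

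Surface mucous (pit) cell genes leaned to the antrum. Muc5ac, the surface mucin, had 55320, 52320 and 55880 against 28900, 24040 and 46910 in corpus, with no overlap, and 19920, 34610 and 28000 against 30040, 37450 and 57250 in antrum, with overlap. The paired fit called Muc5ac, Tff1 and Gkn1 lower in corpus (-0.77, -0.63 and -0.64) and called their differences (1.35, 1.14 and 1.15, adjusted p = 0.0443, 0.0183 and 0.0304); none was called without the block. Of 16 pit cell genes, 13 had a difference above 0 (median 0.83, against 0.09 over all genes) and 3 were called. How many of all tested genes had a difference above 0 was not counted. Krt7, a simple epithelium keratin, fell in corpus by 1.59 (SE 0.27, adjusted p = 0.00465), and its difference of 1.94 was called by the paired fit (adjusted p = 0.00775). Tff3, a trefoil peptide of the intestine list, had 570.8, 917.0 and 882.7 against 37.2, 69.3 and 51.3 in corpus (-3.90, SE 0.72, adjusted p = 0.00758), and 201.3, 83.6 and 1134 against 246.7, 128.9 and 249.8 in antrum, where the groups overlapped. The paired difference on Tff3 was 3.48 (adjusted p = 0.0335; unpaired 0.326). Mucous neck cell genes did not separate the tissues, with 6 of 11 higher in the average by the paired fit, Tff2 and Agr2 among them (1 to 8 without 1 sort day), and 0 differences called.

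Cell cycle genes had higher values in the antrum Sox2-low gate, but no gene of these lists was called for a difference by either fit. The summed S phase level overlapped between the antrum gates, at 28010 to 70430 in Sox2-negative and 61780 to 77260 in Sox2-low libraries. The summed G2/M level did not overlap, at 36810 to 70720 and 77340 to 87240. The median effect over 30 S phase genes was 0.66 in antrum and 0.02 in corpus, and over 25 G2/M genes 0.79 and 0.02; the corpus medians were -0.03 for both when library totals alone were used for scaling. All 30 and all 25 had a difference above 0, as did 23 of 24 ribosome biogenesis genes and 21 of 22 oxidative phosphorylation genes, while the median difference over all genes was 0.09. The share of all tested genes with a difference above 0 was not counted. The antrum effect was above 0 for as many members of each list, against 52.8% of all tested genes. Members of a list were read in the same 12 libraries and are not independent observations. Cdk1, the mitotic kinase, had 2174, 2901 and 1794 against 6419, 3651 and 3290 in antrum, with no overlap, and 2601, 1608 and 3135 against 2449, 1725 and 3179 in corpus. In the paired fit 11 G2/M and 5 S phase genes rose in antrum and none in corpus. These counts were 25 and 26 without antrum sort day 2 and 0 and 0 when any other single day was left out. The cause of these changes was not tested.

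Of 12 tested intestine genes, 3 fell in the average and 0 rose (Tff3, Lyz1 and Guca2b), with medians of -0.95 in antrum and 0.10 in corpus. Of all tested genes, 5.8% fell in the average. Lyz1 (average -3.73) is a lysozyme gene like Lyz2 of macrophages (-5.05), and related copies can share reads. The part of immune cells in the Lyz1 call was not tested. Of 21 foregut region factors 1 differed in the paired fit (Pitx1), and of 9 tested Sox family genes none did, with Sox21, a relative of Sox2, called higher in antrum (0.99) and Sox9 in corpus (0.45) by that fit. Of all tested genes, 2.33% differed in the paired fit. Of 18 Notch pathway genes, 21 stress genes and 23 folding genes, 0 were called for a difference by either fit. No gene passed the unpaired test with a corpus effect above the antrum effect; 2 of the 10 named by the lowest p are given here. Fxyd6, a regulator of sodium pumps, had 6121, 1482 and 2871 against 1021, 943.0 and 1007 in antrum and 344.7, 548.8 and 435.6 against 1414, 1854 and 1138 in corpus (difference -3.31, SE 0.58, adjusted p = 0.127; paired fit adjusted p = 0.00681). Lrrn1, a leucine-rich repeat membrane protein gene, had 1004, 1026 and 2894 against 175.0, 613.8 and 652.0 in antrum and 60.9, 75.2 and 54.9 against 261.2, 244.2 and 155.8 in corpus (difference -3.55, SE 0.74, adjusted p = 0.146; paired fit adjusted p = 0.00623). Neither gene's groups overlapped in either tissue.

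**Figure D5:**
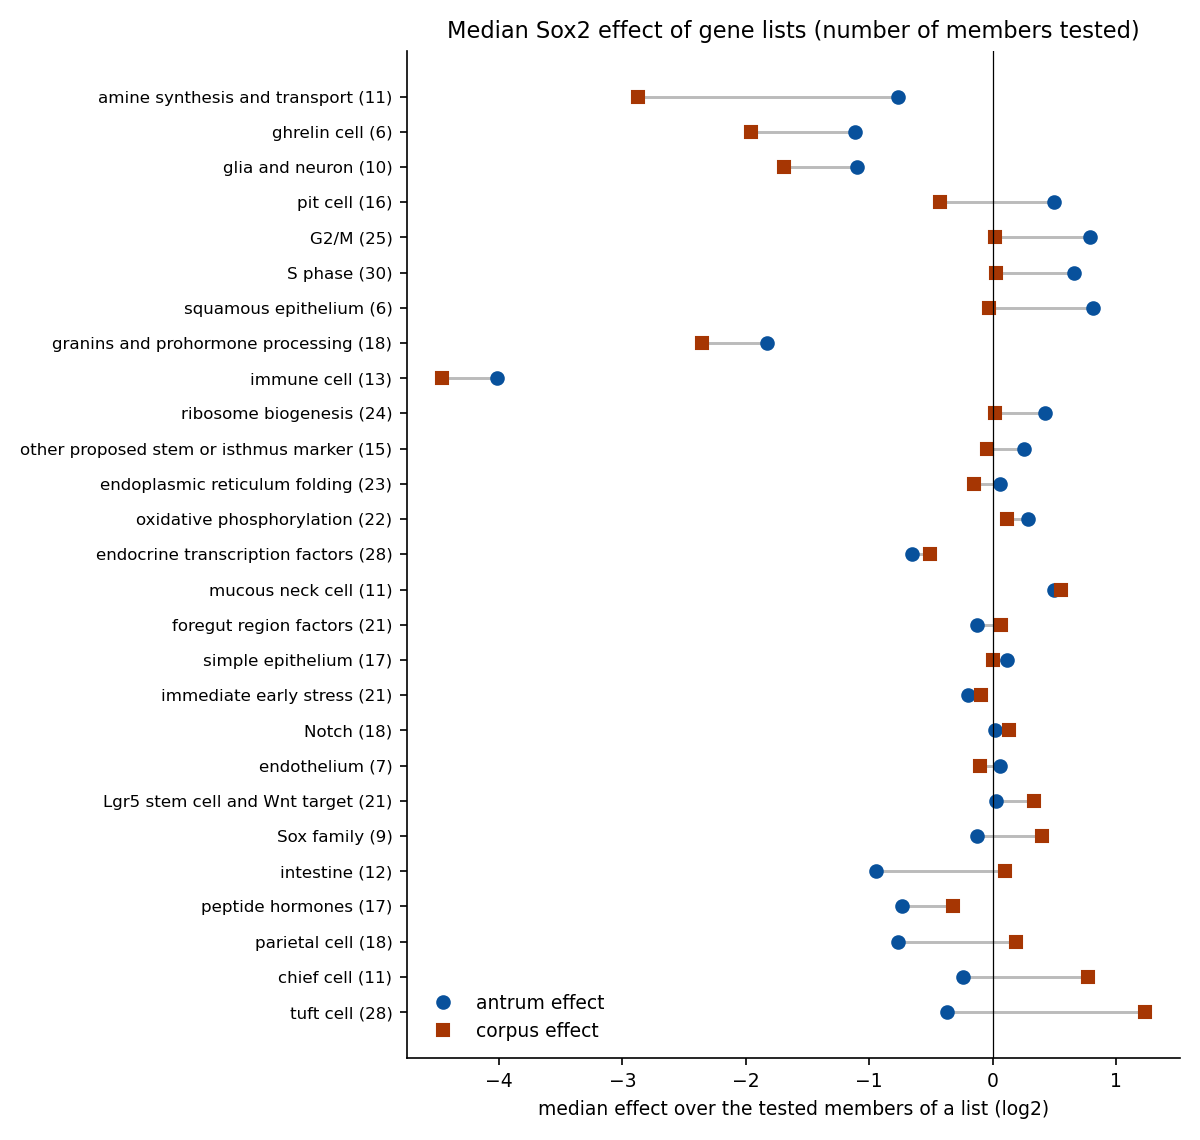
Median Sox2 effect over the tested members of gene lists in antrum (circles) and corpus (squares), in log2 units, ordered by the median difference, with the number of members in parentheses. The sort marker and the fibroblast and muscle list, which had 3 tested members, are not shown. Tuft cell genes have the lowest difference (antrum -0.37, corpus 1.23), granin and immune lists lie below 0 in both tissues, and the cell cycle lists lie above 0 in antrum and near 0 in corpus.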

How the data were processed

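RNA from sorted cells was made into libraries with a Clontech SMARTer v4 kit, per the labels' protocols. STAR, HTSeq, DESeq2, edgeR and the mm9 build are named, without roles or versions, in the submitters' processing notes; strand use was not stated, so antisense and overlapping genes cannot be told apart. The deposited signal values are gene counts that the authors divided by a size factor per library, separately for the antrum and corpus tables. The authors' sort sheet gives the count of sorted cells. It was 14170 to 27770 for antrum Sox2-negative and 61910 to 80000 for Sox2-low libraries. In corpus it was 9170 to 25470 for Sox2-negative and 32150 to 130160 for Sox2-positive libraries. The Sox2-expressing gate had more cells on every sort day, so cell number and gate cannot be told apart. The part of cell number in the effects was not tested. Each column was divided by its smallest nonzero value, and 100% of values were whole reads within 0.01. Tables were joined on symbol, 433 rows without a gene name (0.0841 to 0.402% of reads) and 25 rows with a date for a symbol were left out, and libraries were rescaled by TMM. Values were tested with limma 3.58.1 (trend, robust) in R 4.3.3 on log2(normalized count + 1), with edgeR 4.0.16 and DESeq2 1.42.0 as alternatives. A check on simulated data came first. It planted large changes only, so it does not bear on calls of smaller effects. Depth limits low genes such as Plxdc2.

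Sort days pair the libraries: labels and sort sheet give 1 day in 6 of 6 tissue and number combinations, and same-day libraries deviated together (r 0.355 to 0.524 in antrum, 0.172 to 0.318 in corpus). The descriptions of both corpus libraries of sort day 3 lack a date-like number that opens those of the other compared libraries. What that number stands for was not stated. Named genes were, per effect and direction, the 10 largest past the threshold with the same direction on 3 of 3 days, filled by lowest p, plus Sox2, Mboat4 and list members. The genes and lists were chosen with earlier results of these data known. Adjusted p-values are Benjamini-Hochberg values from limma unless another tool is named.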

Additional observations from a re-analysis of the deposited data

Results flagged for a closer look

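The difference of the Sox2 effects between antrum and corpus was itself tested and passed for 5 genes. It was 7.59 for Plxdc2, which was near absent in antrum so that this value depends on the pseudocount, 4.17 for Lhx5, 3.85 for Mboat4, 3.43 for Olfml2b and 2.72 for Nkx6-2.

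Only Sox2 and the 5 genes called for the difference were looked at in the antrum Sox2-high libraries, which entered no comparison. Of these, 4 lay above every antrum Sox2-negative library when 15 libraries were scaled together. Sox2 is the gene whose reporter set the gates, and no share over all genes was counted. Sox2 was at 3379 ± 1644 normalized counts (SD, n = 3) against 357 ± 288. Mboat4 was at 706.3 ± 121 against 463 ± 47.2. Olfml2b was at 488 ± 204 against 41.6 ± 6.46. Nkx6-2 was at 5967 ± 593 against 2559 ± 313. Lhx5 overlapped between the groups (80.1 ± 22.5 against 71.5 ± 19.3), and Plxdc2 had no read in either. Groups of 3 were not searched for single far libraries.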

How the results depend on the processing

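Counts are given in the order difference, average, antrum, corpus, against 5, 945, 0 and 790 in the unpaired limma fit. The replicate block of sort days (paired fit) gave 372, 2238, 922 and 1583, edgeR with the block 309, 2101, 545 and 1447, DESeq2 226, 1572, 610 and 1285, and voom with quality weights 64, 1437, 142 and 1487. For the difference, edgeR without the block called 3, library totals 9, a pseudocount of 10 called 22 and a minimum of 50 called 3. For the antrum, library totals called 5 and a fit of 15 libraries 3. Without corpus sort day 3 the counts were 0 (difference), 445 (average) and 218 (corpus), with 366 shared genes. Leaving out 1 library gave 0 to 8, 535 to 1243, 0 to 346 and 318 to 967, and 410 to 795 shared genes. With the block and 1 sort day left out, alternatives chosen after seeing the data, the ranges were 96 to 992, 1029 to 4072, 22 to 3620 and 641 to 2152, and 515 to 1042 shared genes. The corpus effect on Sox2 passed the threshold with the block (2.75), with edgeR and the block (2.74), with DESeq2 (2.72) and with voom (2.83), and ran from 2.37 to 3.03 without 1 library. The cause of these changes was not tested. With the block, the difference split into 188 above and 184 below under TMM, 274 and 165 under library totals, and 169 and 206 under RLE; library totals moved the median difference over all genes to 0.198, from 0.09. Over all alternatives for the effects of single named genes, 1537 kept direction and side of the threshold, 183 lost the call, 152 gained it and 0 reversed.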
